A study of Mus musculus with 12 samples.

Results

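Spermatozoa stored in the cauda epididymidis were compared with spermatozoa taken from the testis, to describe how far the stored and the testicular methylomes matched and where they did not. The comparison was chosen by sample label and holds 6 of the 12 samples of the series, 3 per origin, at the 13917 autosomal sites among the 14149 CpG sites of the deposited table. The series measured CpG methylation by reduced representation bisulfite sequencing (RRBS) in sperm of 4 origins: the testis, then the caput, corpus and cauda epididymidis, which sperm pass in this order. Both groups came from untreated B6D2F1 mice aged 10 to 12 weeks that carried the transgene Tg(CAG/su9-DsRed2, Acr3-EGFP)RBGS002Osb. These mice carry DsRed2 in mitochondria under the broadly active CAG promoter and EGFP in the acrosome, and cells with both colours were sorted. Each replicate was a pool of 4 mice, so the replicates were pools and not single animals. Cauda sperm were flushed out backwards through the vas deferens, whereas testicular cells were released by mechanical dissociation, and the study's methods also call the sorted testicular cells spermatids. The way of collection and the origin therefore cannot be told apart.

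DNA methylation of the male germ line is laid down before birth and is complete well before spermatids form. Spermatids then replace most histones with protamines, and sperm leaving the testis are transcriptionally silent while they mature and are stored in the epididymis. CpG islands at promoters are mostly unmethylated in sperm, while gene bodies, repeats and the control regions of paternally imprinted genes are methylated.

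Autosomal reads summed to 774308, 668621 and 755056 in cauda replicates 1, 2 and 3 and to 931616, 993646 and 866593 in the testicular replicates. The median site was read 40, 34 and 39 times in cauda and 44, 53 and 45 times in testis, with a minimum of 10 reads in every sample. Methylation of a site is the percent of its reads that were methylated. Differences at single sites are given in percentage points (cauda minus testis) between the pooled reads of the groups, with Newcombe 95% intervals. Intervals and limits cover counting error only, since PCR reads are not independent molecules.

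Loci with a known state in germ cells were examined in both groups. The H19 site, within 2 kb of an annotated start of this paternally imprinted gene but outside its imprint control region, was methylated at 98.9, 98.4 and 97.1% in cauda and at 97.8, 96.7 and 92.8% in testis, from 125 to 270 reads. The second measured gene among the 6 paternal imprints, Rasgrf1, had 0 methylated of 931 reads at its promoter in cauda, which allows a share of up to 0.322%, and 4 of 1038 reads in testis. Its imprint control region lies upstream of the promoter and was not covered, so it checks nothing here. Of 25 maternally imprinted genes, whose control regions are unmethylated in sperm, 3 were measured. Commd1 and Zrsr1 share their 4 sites, which were at 0, 0 and 3.41% in cauda and at 0, 0 and 8.99% in testis. Mcts2, a retrogene with a maternal imprint, was at 0, 0 and 4% in cauda and at 0, 1.71 and 5.61% in testis. In both groups the H19 site was nearly fully methylated and the maternal loci were nearly unmethylated, with the highest values of the latter in replicate 3 of either group.

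Promoters of germline genes are methylated in somatic cells and unmethylated in germ cells, and 8 of the 51 listed genes had a site. Dazl, an RNA-binding protein of germ cells, was methylated at 2.38, 5.78 and 2.81% in cauda and at 11.1, 2.22 and 2.45% in testis. D1Pas1, a testis-specific RNA helicase, was at 0, 0 and 4.85% in cauda, and 0 of 168 reads were methylated in testis, which allows up to 1.79%. Tex101, a germ cell surface protein, had 0 methylated of 116 reads in cauda, which allows up to 2.59%, and was at 0, 0 and 4% in testis. Low values were found in nearly every sample at these 3 genes, with testis replicate 1 at Dazl as the highest. Dppa3 and the meiotic cohesin gene Smc1b did not pass 2.08% in any sample. Tex14, needed for germ cell bridges, lay between 12.6 and 15.5% in all samples. Tdrd6, a component of the chromatoid body, was at 9.09, 30 and 43.1% in cauda and at 10.3, 31.2 and 23.1% in testis. Meioc, a regulator of meiotic prophase, was at 17.9, 0 and 11.5% in cauda and at 42, 7.69 and 22.2% in testis. The groups overlapped at all 8 germline promoters, and both Tdrd6 and Meioc varied widely among the pools of each group. Among all 3616 genes with a promoter site, 2.49% were higher and 2.68% lower in cauda without overlap. With 8 genes the overlap is not read as particular to germline promoters.

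The methylomes of stored and testicular sperm were close at nearly all sites. Mean autosomal methylation was 48.7, 48.9 and 48.2% in cauda and 47.9, 49.1 and 48.7% in testis. The group means were 48.6% ± 0.348 in cauda and 48.6% ± 0.606 in testis (SD, n = 3 each). They differed by −0.0168 points, with p = 1 in an exact two-sided permutation test, which cannot go below 0.1 with 3 samples against 3. Weighted by reads, as the percent of all reads of a sample, the difference was −0.623 points (exact permutation p = 0.3), and as the median over sites it was −2.22 points (exact permutation p = 0.4). By the mean over sites, testis replicate 1 was the lowest sample and testis replicate 2 the highest, so that the cauda samples lay within the testicular range. By the other measures cauda replicate 3 was the lowest sample. It was at 50.9% of all reads and a median of 40.6%, against 51.1 and 41.7% in testis replicate 1. The difference of means was −0.351 points without testis replicate 1, and it turned to 0.175 without cauda replicate 3, 0.239 without testis replicate 2 and 0.0621 without testis replicate 3. Sites below 10% made up 41.9, 41.7 and 42.6% of the total in cauda and 41.8, 41.2 and 41.5% in testis. Sites above 90% made up 38.5, 39.0 and 38.4% in cauda and 36.3, 39.0 and 38.3% in testis, where replicate 1 stood apart with the smallest share.

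Across the 13917 sites, the group means had a Pearson correlation of 0.994 and a Spearman correlation of 0.911. The sites shared the same libraries and are not replicates. Most sites are nearly unmethylated or nearly fully methylated, which spreads the values widely. Among the 1476 sites (10.6%) with a mean between 20 and 80%, the Pearson correlation was 0.859. The median absolute difference was 1.72 points, and the 95th percentile was 10.3 points. Cauda and testis lay within 5 points of each other at 81.9% of sites, within 10 points at 94.7% and within 25 points at 99.7%. A difference of more than 10 points was found at 737 sites, and of more than 25 points at 45 sites. Of the sites with a mean between 20 and 80%, 70.7% lay within 10 points.

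**Figure D1:**
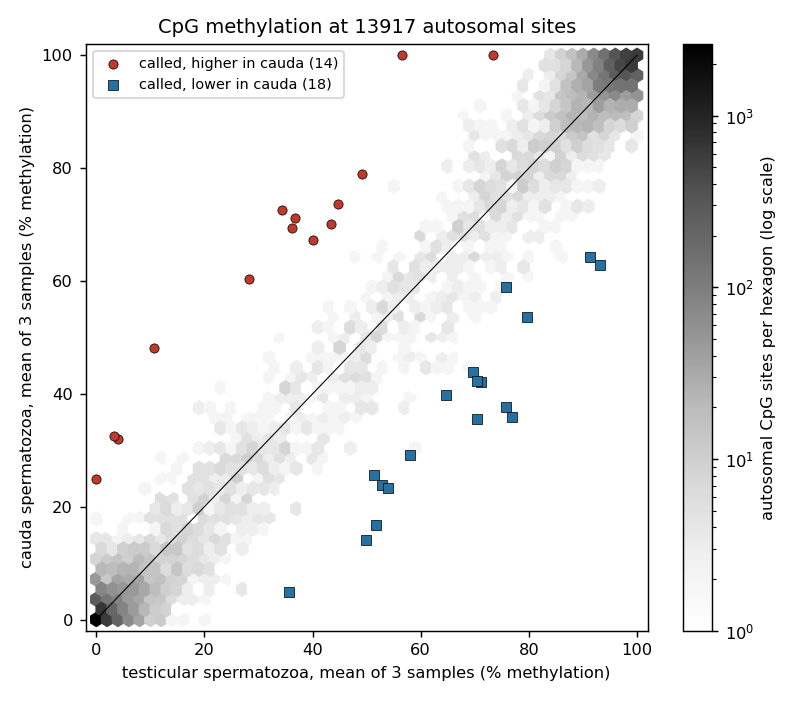
Mean methylation of each autosomal site in testicular sperm (x axis, %) against cauda sperm (y axis, %), 3 pools per group, with the called sites marked. The sites crowd at both ends of the diagonal, and the 32 called sites lie mainly between them.

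The depth limits how tightly each site bounds the difference. The 95% interval of the difference lay wholly within 25 points at 97.6% of sites (13587), within 10 points at 70.2% and within 5 points at 28.9%, and its median width was 9.98 points. At 330 sites the interval reached 25 points or more, so that the difference was not bounded by 25 points there. An interval within 25 points does not show equal methylation, and these intervals hold no term for the spread between pools. At 86 sites the interval lay wholly beyond 10 points, and at 7 sites beyond 25 points.

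No site went from one end of the scale to the other. Of the 6090 sites with more than 80% methylation in testis, 5961 (97.9%) were also above 80% in cauda, 129 were between 20 and 80%, and 0 were below 20%. Of the 6314 sites below 20% in testis, 6224 (98.6%) were below 20% in cauda, 90 were in the middle range, and 0 were above 80%. The 1513 testicular sites in the middle range kept that range in 1235 cases (81.6%), while 137 were above 80% and 141 below 20% in cauda.

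Single pools of the same origin were on average about as far apart as pools of different origins. The distance between 2 samples is the mean absolute difference over the 13917 sites. It averaged 4.58 points among the cauda pools (4.54 to 4.62), 4.98 among the testicular pools (4.40 to 5.30) and 4.75 between cauda and testis (4.44 to 5.07). Pairs of different origins were −0.0273 points apart from pairs of the same origin, with p = 0.5 in an exact one-sided permutation test over the samples (smallest possible p 0.1). Without testis replicate 1, 2 or 3 this value turned to 0.118, 0.0509 and 0.0477 points (exact permutation p = 0.2, 0.4 and 0.4). Testis replicate 1 lay at 5.08 points from the other 5 samples on average, and the 10 pairs without it at 4.61. For comparison, the caput pools 1, 2 and 3 lay at 18.4, 10.2 and 9.78 points from testis, and the corpus pools at 8.41, 7.54 and 7.74. The cauda pools 1, 2 and 3 lay at 4.64, 4.84 and 4.79 points from the same testicular samples, below every caput and corpus pool. These distances share the testicular samples, and the difference between segments was not tested.

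**Figure D2:**
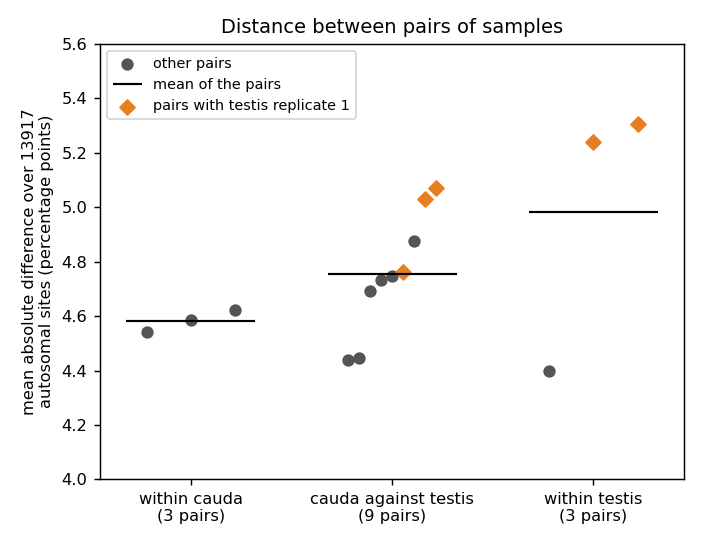
Mean absolute methylation difference (y axis, percentage points, starting at 4) for each pair of samples within cauda, within testis and between them; dots are pairs, diamonds pairs with testis replicate 1, and bars the means. The 3 sets overlap, with means of 4.58, 4.98 and 4.75 points, and the testicular pairs with replicate 1 are among the highest.

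The genome was divided by gene annotation, by methylation level in caput and corpus, by CpG density and by repeats, and the mean of each class was compared over samples. Together with the mean over all autosomal sites this gave 17 exact two-sided permutation tests, and every adjusted p (Benjamini-Hochberg) was 1. Promoter sites (6094 within 2 kb of a transcription start) were methylated at 19.6, 19.7 and 19.2% in cauda and at 19.2, 19.9 and 19.6% in testis. Exon sites (877) were at 70.2, 69.6 and 69.1% in cauda and at 69.3, 70.7 and 70.8% in testis. Intron sites (3055) were at 79.7, 79.8 and 79.6% in cauda and at 78.6, 79.9 and 79.7% in testis. The groups overlapped in each of these classes, and testis replicate 1 was the lowest testicular sample in all of them. Intergenic sites (3891) were at 64.9, 65.6 and 64.2% in cauda and at 64.0, 65.8 and 65.2% in testis, again with overlap. The differences were −0.0292 points in promoters (exact permutation p = 1), −0.581 in exons (p = 0.3), 0.300 in introns (p = 0.8) and −0.119 in intergenic sites (p = 0.8). Without testis replicate 1 the promoter, exon, intron and intergenic differences were −0.226, −1.07, −0.0698 and −0.606 points. The exon difference was −0.291 points without testis replicate 3. The promoter and intergenic differences turned to 0.162 and 0.268 without testis replicate 2 and to 0.131 and 0.213 without cauda replicate 3.

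Sites that were nearly fully methylated in caput and corpus separated the groups by a small amount. The 4353 sites with 90 to 100% there were methylated at 96.9, 97.0 and 96.8% in cauda and at 96.2, 96.5 and 96.6% in testis. Every cauda pool was above every testicular pool, and the difference of 0.523 points had p = 0.1, the smallest an exact permutation test can give here, and an adjusted p of 1. It ranged from 0.408 to 0.595 points when each sample was left out. The 4600 sites with 0 to 10% differed by −0.0590 points, with 1.16, 1.13 and 0.993% in cauda and 1.05, 1.25 and 1.17% in testis. The 1107 sites with 40 to 60% differed most, by −1.45 points (exact permutation p = 0.4), from 32.1, 32.4 and 30.2% in cauda and 30.9, 35.0 and 33.2% in testis. This difference was −2.52 points without testis replicate 1 and −0.448 without testis replicate 2. In the latter case the class with 80 to 90% differed more, by 0.782 points. The groups overlapped in the low and the middle classes, and the testicular pools spread more widely than the cauda pools.

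CpG density and repeats did not set the groups apart either. Sites with 10 or more CpG within 100 bases on either side were methylated at 17.8% ± 0.449 in cauda and at 18% ± 0.449 in testis. Sites with 1 to 4 CpG were at 75.4% ± 0.263 in cauda and at 75.2% ± 0.580 in testis. Soft-masked repeat sites (2206) were at 59.9% ± 0.518 in cauda and at 59.8% ± 0.432 in testis (SD, n = 3 for each of these means). The means of the 19 autosomes differed by −0.283 to 0.338 points.

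Single sites were tested by logistic regression of the methylated reads on origin, with a likelihood-ratio test on pooled reads and Benjamini-Hochberg adjustment over 14149 sites. A site was called where the adjusted p was below 0.01 and the groups were more than 25 points apart. This called 32 autosomal sites (0.23% of 13917), 14 higher in cauda (0.101%) and 18 lower (0.129%), at 27 loci at least 1 kb apart. Of the calls, 8 lay in promoters, 3 in exons, 8 in introns and 13 between genes. All 3 exon calls were lower in cauda, but they lay only at neighbouring sites of Azin2 and at Vit. The share called was 0.131% of promoter, 0.342% of exon, 0.262% of intron and 0.334% of intergenic sites. Chromosomes 1 and 13 held 5 calls each (0.619 and 0.718% of their sites) and chromosomes 4 and 14 held 4 each (0.435 and 0.708%). Calls on chromosomes 4, 13 and 14 included neighbouring sites that can lie on the same reads, and no concentration by chromosome is read from these counts. Soft-masked sites held 5 calls (0.227%) and other sites 27 (0.231%). The 4600 sites with 0 to 10% methylation in caput and corpus held 0 calls, and the 1243 sites with 60 to 80% held 12 (0.965%). The testicular mean lay between 20 and 80% at 26 of the 32 sites, beside 1513 of all 13917 sites. A required difference above 25 points favours middle values, so this is not read as a trait of the called sites.

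The test on pooled reads takes every read as independent and holds no term for the spread between pools. At an unadjusted p under 0.05 it gave 3162 sites (22.7%). With an overdispersion term it called 0 sites, with 431 (3.1%) at an unadjusted p under 0.05. limma on logit-like values per sample also called 0 sites, with 569 (4.09%) at an unadjusted p under 0.05, 21 of them among the 32 called sites. The smallest limma adjusted p was 0.00368, at a site that differed by at most 25 points. The median SD between replicates was 13.6 points in cauda and 13.0 in testis at the called sites, against 2.20 and 2.41 points at all sites. At sites with a mean between 20 and 80% it was 10.2 points in both groups.

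Coverage and single pools moved with the calls. The 5036 sites with at most 20 reads in their thinnest sample held 18 calls, and the 4574 sites in the best covered class, above 37 reads, held 2. Calls numbered 63 without cauda replicate 1 (28 higher, 35 lower) and 60 without testis replicate 1 (21 higher, 39 lower), and 22 and 21 of them were among the 32. Without cauda replicate 2, cauda replicate 3, testis replicate 2 or testis replicate 3 there were 41, 32, 38 and 37 calls, of which 25, 16, 19 and 21 were among the 32. Of the 32 sites, 7 were called in all 6 of these fits. A call was lost where either the adjusted p or the difference missed its threshold, so a lost call need not mean a smaller difference. At 22 sites all cauda pools lay on one side of all testicular pools, and at 10 the groups overlapped. Among all 13917 sites, every cauda pool lay above all testicular pools at 2.86% and below them at 2.53%. The calls were chosen for a large difference in these same pools, which favours separation, so the 22 are not read as support for them. The part of coverage and of single pools in the calls was not tested.

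The largest rise without overlap lay in an intron of Prkca, which encodes protein kinase C alpha. At chr11:107970558 methylation was 100, 100 and 100% in cauda and 86.1, 23.3 and 60% in testis, from 16 to 36 reads. The pooled difference was 41.6 points (30.4 to 51.3, adjusted p = 6.22e-08). All cauda pools were fully methylated and the testicular pools were spread over a wide range. The neighbouring CpG at 107970560 was at 90% or more in every sample and differed by 3.92 points (adjusted p = 0.246), so the difference was found at only 1 of these neighbouring CpG.

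The pseudogene Gm13146 on chromosome 4 showed a rise over a stretch of sites within its promoter. At chr4:147187824 methylation was 30, 30.8 and 37.0% in cauda and 0, 3.64 and 6.06% in testis, a difference of 28.9 points (17.6 to 40.6, adjusted p = 5.57e-05). At chr4:147187827 it was 5, 26.9 and 42.9% in cauda and 0, 0 and 0% in testis, a difference of 27.0 points (17.5 to 38.1, adjusted p = 6.44e-07). Cauda pools were above all testicular pools at both. At the second site the 0 of 13, 55 and 35 testicular reads allow up to 23.1, 5.45 and 8.57%, so that a difference of cauda replicate 1, at 5%, from these pools was not detectable. The second site lost its call without cauda replicate 3. All 9 measured sites of this 36-bp stretch were higher in cauda in the pooled reads, by 4.71 to 28.9 points, 4 of them at an adjusted p under 0.01. Sites this close, with nearly the same depth, can lie on the same reads, so the 9 are not independent observations. The groups were without overlap at only 4 of the 9 sites. At 147187801 testis replicate 2, at 24.5%, lay above cauda replicates 1 and 2, at 10 and 19.2%. The mean of the stretch was 10.1, 18.2 and 30.9% in cauda and 0, 7.21 and 1.94% in testis.

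Further rises in promoters and introns were found at genes with diverse roles. At Morn3, a MORN-repeat gene, chr5:123046591 in the promoter was at 58.3, 75 and 75% in cauda and at 28.9, 50 and 29.8% in testis (difference 31.7 points). At Tbx3os2, a non-coding RNA gene beside Tbx3, chr5:119689313 in the promoter was at 100, 100 and 100% in cauda and at 47.1, 81.0 and 92.3% in testis (31.1 points). In an intron of the urea transporter gene Slc14a2, chr18:78259888 was at 50, 25.6 and 20.6% in cauda and at 0, 6.12 and 6% in testis (27.2 points). The groups did not overlap at these 3 sites, although testis replicate 2 at Morn3 and replicates 2 and 3 at Tbx3os2 came near the cauda values. Tbx3os2 lost its call without testis replicate 1 and Slc14a2 without cauda replicate 1, and Morn3 lost it without cauda replicate 2 or 3 or testis replicate 1 or 3. The 0% of testis replicate 1 at Slc14a2 came from 32 reads and allows up to 9.38%.

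Between genes, 3 further rises had no overlap. The site chr12:78167736, 26506 bp from Gm6657, was at 52.9, 25 and 66.7% in cauda and at 9.09, 14.3 and 8.70% in testis, from only 11 to 24 reads (33.0 points, 15.9 to 47.6). The site chr14:116916953, 8362 bp from the glypican gene Gpc6, was at 77.3, 76 and 83.3% in cauda and at 37.5, 68.8 and 41.2% in testis (30.5 points). The site chr6:86344096, 21550 bp from Fam136a, was at 73.1, 82.4 and 65.4% in cauda and at 40.9, 62.9 and 30.2% in testis (29.0 points). In each case testis replicate 2 was the highest testicular pool, and near Gpc6 and Fam136a it lay close to the cauda pools. The neighbouring CpG near Fam136a at 86344122 also had all cauda pools above all testicular pools and differed by 25.2 points, but its adjusted p of 0.0160 missed the threshold. The call near Gm6657 was lost without any of the samples except cauda replicate 2, that near Gpc6 without cauda replicate 3 or testis replicate 1 or 3, and that near Fam136a without cauda replicate 1 or 2 or testis replicate 1 or 3. Without testis replicate 1, 2 or 3 the difference near Gm6657 was about as large, at 32.6, 34.6 and 31.4 points, and only the adjusted p missed its threshold.

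The largest fall lay in an intron of Kat6b, which encodes a histone acetyltransferase. At chr14:21602331 methylation was 26.2, 58.8 and 21.4% in cauda and 60, 75 and 76.2% in testis, a difference of −39.9 points (−50.1 to −28.2, adjusted p = 1.01e-07). At chr14:21602323 it was 22.2, 60.6 and 36.4% in cauda and 44, 78.1 and 72.1% in testis, a difference of −32.1 points (−42.7 to −20.2, adjusted p = 4.49e-05). Cauda replicate 2 was far above the other cauda pools at both sites. It stayed just below the lowest testicular pool at the first site and overlapped with the testicular range at the second, which lost its call without cauda replicate 1 or testis replicate 2.

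At Slc7a15, an amino acid transporter gene, chr12:8600424 in the promoter was at 30.8, 35.9 and 41.0% in cauda and at 94.6, 53.8 and 82.2% in testis, a difference of −39.5 points (−50.9 to −26.3, adjusted p = 4.12e-06). In an intron of Hmcn1, which encodes the extracellular matrix protein hemicentin 1, chr1:150681063 was at 0, 10.3 and 4.44% in cauda and at 36.8, 43.2 and 27.1% in testis, a difference of −31.3 points (−40.1 to −22.0, adjusted p = 1.01e-07). The groups were well apart at both genes, and the 0 of 48 reads in cauda replicate 1 at Hmcn1 allows up to 6.25%. The next CpG of Hmcn1, at 150681088, differed by −22.7 points (adjusted p = 5.19e-05) and also had all cauda pools below all testicular pools, but stayed under the 25 points required.

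At 1435371 bp from the nearest coding gene, chr2:100102672 was the most deeply read of the sites named in full, with 55 to 124 reads. It was methylated at 3.26, 7.27 and 31.7% in cauda and at 55.2, 60.5 and 33.9% in testis, a difference of −38.0 points (−45.4 to −30.0, adjusted p = 4.94e-15). The site chr6:57333820, 4326 bp from the vomeronasal receptor gene Vmn1r16, was at 40.6, 39.1 and 33.3% in cauda and at 57.8, 77.1 and 92.7% in testis, a difference of −38.5 points (−49.3 to −26.0, adjusted p = 1.8e-06). The groups did not overlap at either site, but replicate 3 of cauda and replicate 3 of testis were close at the first. Both kept their call without any single sample, as did those at Prkca, Slc7a15 and Hmcn1 and the larger rise of Gm13146 and fall of Kat6b.

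In an intron of Hs6st3, a heparan sulfate sulfotransferase gene, chr14:119400721 was at 48.9, 42.9 and 34.3% in cauda and at 73.5, 78.3 and 61.8% in testis (−29.3 points). The site chr1:31689017, 464729 bp from Pih1d3, was at 39.0, 68.2 and 53.8% in cauda and at 81.8, 82.4 and 75% in testis (−28.9 points). Cauda pools were below all testicular pools at both, by a narrow gap in cauda replicate 2 at the latter. Hs6st3 lost its call without cauda replicate 3 or testis replicate 2, and the site near Pih1d3 without cauda replicate 1 or 3 or testis replicate 1 or 2. With the replicate number as a block in the logistic regression, the site near Pih1d3 also lost its call (adjusted p = 0.0347).

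Another fall covered neighbouring sites in an exon of Azin2, an antizyme inhibitor gene of the polyamine pathway. At chr4:128945917 methylation was 46.2, 38.1 and 42.3% in cauda and 61.5, 73.5 and 76.3% in testis (−28.6 points), and at chr4:128945936 it was 30.8, 41.5 and 15.4% in cauda and 54.7, 54.5 and 64.9% in testis (−26.5 points). All cauda pools were below all testicular pools at both sites. The first lost its call without cauda replicate 2 or 3 or testis replicate 2 or 3, and the second without any of the samples except cauda replicate 2. The 4 measured sites of this exon stretch were all lower in cauda in the pooled reads, by −7.93 to −28.6 points. They too can lie on the same reads and are not independent observations. At the 2 sites that were not called the groups overlapped (adjusted p = 0.546 and 0.372). At 128945938 testis replicate 1, at 37.7%, lay below cauda replicates 1 and 2, at 46.2 and 57.1%.

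Near Tmem174 and Aasdhppt the called neighbours were less uniform. At 8134 bp from Tmem174, chr13:98626844 was at 26.3, 37.0 and 8.11% in cauda and at 50, 55.9 and 52.4% in testis (−31.1 points). The next site, chr13:98626856, was at 26.3, 35.7 and 8.11% in cauda and at 63.9, 64.7 and 33.3% in testis (−35.7 points). Both lost their call without cauda replicate 3, and the first also without testis replicate 2. Cauda was below testis without overlap at the first site only, and a further CpG of this stretch, at 98626914, differed by 21.7 points in the opposite direction (adjusted p = 0.0767). At 35277 bp from Aasdhppt, chr9:4259516 was at 13.6, 87.9 and 100% in cauda and at 82.4, 24 and 13.8% in testis (36.3 points). The next site, chr9:4259547, was at 31.8, 81.8 and 100% in cauda and at 94.1, 12.5 and 3.45% in testis (44.2 points). Replicate 1 ran against the other replicates in both groups there, so that cauda replicate 1 was far below testis replicate 1. Both sites lost their call without cauda replicate 3 or testis replicate 3, and the first also without cauda replicate 2 or testis replicate 2.

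**Figure D3:**
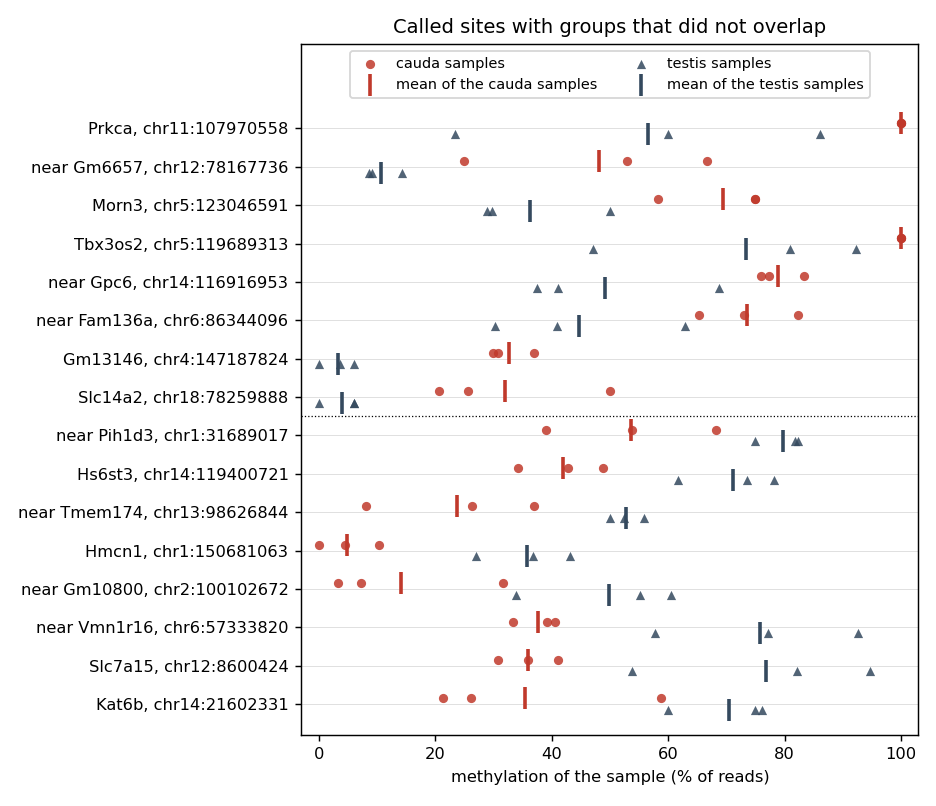
Methylation (x axis, %) of the 8 largest rises and the 8 largest falls without overlap between the groups, taking 1 called site per 1 kb, with circles for cauda pools, triangles for testicular pools and vertical ticks for group means. The groups lie apart at each of these 16 sites, and circles coincide at 100% for Prkca and Tbx3os2.

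The sequences around the 7 sites that kept their call without any single sample, and around the called neighbours of Azin2, Tmem174 and Aasdhppt, show where the differing CpG lie. They are 101 bases of the plus strand of GRCm38, and capitals mark the called CpG.
Prkca intron, chr11:107970508-107970608: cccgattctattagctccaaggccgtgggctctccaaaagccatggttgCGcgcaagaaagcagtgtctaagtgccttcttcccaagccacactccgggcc
Gm13146 promoter, chr4:147187774-147187874: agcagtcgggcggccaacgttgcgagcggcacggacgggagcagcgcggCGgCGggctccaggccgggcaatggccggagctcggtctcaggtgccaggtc
Kat6b intron, chr14:21602273-21602373: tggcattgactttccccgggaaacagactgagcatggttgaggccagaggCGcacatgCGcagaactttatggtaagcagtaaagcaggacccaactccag
Slc7a15 promoter, chr12:8600374-8600474: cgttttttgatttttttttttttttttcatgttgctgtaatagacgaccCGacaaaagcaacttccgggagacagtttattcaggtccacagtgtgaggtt
Hmcn1 intron, chr1:150681013-150681113: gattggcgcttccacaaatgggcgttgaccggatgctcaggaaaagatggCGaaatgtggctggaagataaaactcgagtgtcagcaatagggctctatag
Intergenic site of chromosome 2, chr2:100102622-100102722: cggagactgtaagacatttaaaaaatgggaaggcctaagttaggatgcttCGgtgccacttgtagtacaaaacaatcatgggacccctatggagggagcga
Intergenic site near Vmn1r16, chr6:57333770-57333870: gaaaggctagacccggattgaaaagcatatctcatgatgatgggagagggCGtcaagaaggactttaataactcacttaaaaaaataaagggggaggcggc
Azin2 exon, chr4:128945867-128945967: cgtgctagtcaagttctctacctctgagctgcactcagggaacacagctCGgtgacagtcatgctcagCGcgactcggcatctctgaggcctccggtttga
Intergenic sites near Tmem174, chr13:98626794-98626894: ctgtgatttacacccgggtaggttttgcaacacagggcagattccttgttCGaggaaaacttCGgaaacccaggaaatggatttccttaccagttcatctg
Intergenic sites near Aasdhppt, chr9:4259466-4259566: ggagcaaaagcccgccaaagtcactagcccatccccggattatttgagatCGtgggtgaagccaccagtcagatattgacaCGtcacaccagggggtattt
RRBS reads start at the MspI site CCGG, a motif that reads the same on both strands. CCGG was present in the 301 bases around all 32 called sites and around 13880 of all 13917 autosomal sites (99.7%). The window of Gm13146 held 14 CpG, and those of Kat6b, Tmem174 and Hmcn1 held 3, 3 and 5.

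The other 9 called sites rose or fell at genes and intergenic places listed here by their range. The rises were 46.9 points in the promoter of Kif14, a kinesin of cell division, 37.5 points near Twist2 and 27.7 points in an intron of Fam13c, all with overlap between the groups. Kif14 was at 100, 50 and 67.5% in cauda and at 62.1, 0 and 41.2% in testis, and its call was lost without cauda replicate 1 or testis replicate 2. The falls ran from −25.4 to −35.1 points in an exon of Vit, in an intron of the secretin receptor gene Sctr, near Gm3604 and near Sox5, and in the promoters of Ssbp2 and Cdc14b. The groups overlapped at Ssbp2, Cdc14b and near Sox5. Cdc14b, a phosphatase gene, was read 56 to 181 times and was at 100, 48.1 and 28.4% in cauda and at 38.9, 94.5 and 94.1% in testis. Replicate 1 again ran against the other replicates in both groups at Cdc14b, whose call was lost without cauda replicate 3 or testis replicate 2. The call near Twist2 was lost without cauda replicate 1 or testis replicate 1, that of Ssbp2 without cauda replicate 2 or testis replicate 2, that near Sox5 without cauda replicate 3 or testis replicate 2, and that near Gm3604 without cauda replicate 3 or testis replicate 1. Fam13c lost its call without cauda replicate 1 or 2 or testis replicate 1 or 3, Vit without cauda replicate 1 or 3 or testis replicate 1 or 3, and Sctr without cauda replicate 2 or testis replicate 2 or 3. Fam13c also lost its call with the replicate number as a block in the logistic regression (adjusted p = 0.0145).

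Within 100 bp of 13 of the called sites lay 18 measured sites that were not called, of which 15 differed in the same direction as the call, 7 of them in the stretch of Gm13146. Sites this close can lie on the same reads, and the share with the same direction among all neighbouring sites was not computed. The 15 are therefore not read as support for the calls. When reads were summed in 100-bp windows, 20 of 9404 windows passed the same thresholds, 9 higher and 11 lower, each with a called site in it. Of the 2934 windows with at least 2 sites, 4 passed, at Kat6b, Hmcn1 and near Tmem174 and Aasdhppt.

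Small differences were much more common than large ones. An adjusted p under 0.01 was found at 349 sites, 183 higher and 166 lower in cauda, and 317 of these differed by at most 25 points, with a median of 10.6. All cauda pools lay above all testicular pools at 398 sites (2.86%) and below them at 352 (2.53%). The gap between the groups at these 750 sites was small, with a median of 1.86 points, and it reached 10 points at 31 sites, 10 higher and 21 lower.

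The called sites were followed through caput and corpus. The sites were chosen for their values in cauda and testis. The choice therefore sets the difference between those groups, and it can also move caput and corpus apart from the same testicular samples, so the values are a description and no change along the epididymis is read from them. At the 14 sites higher in cauda, mean methylation was 37.3, 29.4 and 32% in testis and 62.7, 63.9 and 66.5% in cauda. It was 65.0, 69.7 and 54.2% in caput and 57, 58.3 and 65.8% in corpus. These means cover unlike sites, and near Fam136a caput was at 61.3, 67.6 and 36.4%, with replicate 3 below testis replicates 1 and 2. Morn3 was at 0, 0 and 0% in caput, from 12, 24 and 16 reads, below every testicular pool. At the 18 sites lower in cauda, mean methylation was 61.9, 71.2 and 65.6% in testis and 39.0, 39.1 and 30.9% in cauda. It was 66.1, 55.5 and 52.8% in caput and 49.8, 52.2 and 53.8% in corpus. Single sites varied here too, and Hmcn1 was at 100, 66.7 and 54.8% in caput while the site near Sox5 was at 26.1, 17.6 and 40.7%. Over all sites the same test called 2343 sites in caput (16.8%) and 554 in corpus (3.98%) against testis, or 1655 and 629 without replicate 1 of each segment. Caput and corpus lay within 10 points of testis at 69.4 and 80.5% of sites, beside the 94.7% of cauda.

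Promoter means were taken for the 3616 genes with a site within 2 kb of a transcription start. Cauda was above testis in every sample at 90 genes (2.49%) and below at 97 (2.68%), the median absolute difference was 1.06 points, and 96.5% of genes lay within 10 points. A called site was found in 7 of these genes, and in 0 genes of the lists described here. The imprinted genes and germline promoters had 0 genes without overlap in either direction.

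Of 64 genes of spermatids and sperm, 5 were measured, all with overlap, beside 2.49% higher and 2.68% lower without overlap among all genes. Dnah8, an axonemal dynein gene, was at 100, 100 and 100% in cauda and at 100, 73.7 and 100% in testis, from 10 to 30 reads. Adam2, a subunit of the sperm surface protein fertilin, was at 5.08, 0 and 0% in cauda and Pla2g6, a phospholipase gene, at 0, 3.03 and 0%, both with 0% in all testicular pools (0 of 203 and 230 reads, which allow up to 1.48 and 1.30%). Single pools made the difference in each of these genes. Of 50 genes of the epididymal epithelium, 0 had a site, so that contact with this tissue could not be examined. Of 40 genes of testicular somatic and blood cells, 4 were measured, again all with overlap. With 5 and 4 genes these counts are too few to be read against the shares of all genes. Gata4, a factor of Sertoli and Leydig cells, was at 3.63, 0 and 0% in cauda and at 0, 0 and 0.435% in testis. The inhibin subunit gene Inhbb was at 0.799, 0 and 0% in cauda and at 3.52, 0 and 0% in testis. The keratin gene Krt18 was at 93.1, 93.5 and 86.4% in cauda and at 92.4, 94.6 and 88.8% in testis, with replicate 3 lowest in either group.

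Among 29 genes of the DNA methylation machinery, 6 were measured, of which 1 was higher and 2 were lower in cauda without overlap, beside 2.49 and 2.68% of all genes. With 6 genes these counts are too few to be read against those shares. Tet1, which oxidises methylcytosine, was at 23.4, 21.2 and 19.2% in cauda and at 24.3, 30.4 and 25% in testis. Ehmt2 and Ehmt1, which encode histone H3 methyltransferases, differed by 4.03 and 3.86 points with overlap. Named after their values were seen, Ctcf, an insulator protein gene, was at 0% in all cauda pools (0 of 325 reads, which allows up to 0.923%) and at 3.45, 6.26 and 0.450% in testis, and the methyltransferase gene Dnmt3a was at 98.1, 100 and 98.6% in cauda and at 96.7, 96.9 and 97.1% in testis. Tet1 was lower and Dnmt3a higher in every cauda pool, by small amounts, and the limit for Ctcf lies above testis replicate 3, so that a difference from that pool was not detectable. The gap at Tet1 was less than 1 point in testis replicate 1 against cauda replicate 1. Of 16 genes that the study had named, 3 had a site within 2 kb of a transcription start. These sites were taken by distance to the gene start and not by the positions that the study assayed, and that of Cald1 lies outside the region the study listed for this gene. The site of Cald1, a caldesmon gene, was at 100, 100 and 100% in cauda and at 100, 95.7 and 93.2% in testis, and that of the calpain gene Capn2 was at 94.1, 98.0 and 100% in cauda and at 96, 100 and 91.7% in testis. With D1Pas1, all 3 overlapped between the groups, again too few genes to be read against the shares of all genes.

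The 84 measured genes of developmental regulator families included 0 higher and 4 lower in cauda without overlap (4.76%), beside 2.49% higher and 2.68% lower among all 3616 genes, and nothing particular to these families is read from the 4 genes. Hoxa5, a homeobox gene, had a single site at 0, 0 and 0% in cauda and at 50, 11.1 and 8.33% in testis, from 10 to 48 reads, and the 0 of 106 cauda reads allow up to 2.83%. Hoxc10 was at 10.5, 10.5 and 0% in cauda and at 14.3, 42.9 and 7.69% in testis. The promoter of Sox5 was at 97.2, 96.4 and 85.1% in cauda and at 95.9, 89.3 and 56.4% in testis. Single testicular pools gave the largest gaps in all 3, replicate 1 for Hoxa5, replicate 2 for Hoxc10 and replicate 3 for Sox5, and only Hoxa5 had no overlap. The others without overlap, named after their values were seen, were Hoxd11, Foxi3 and Otx2. Otx2 was at most 0.580% in cauda and at least 1.55% in testis. Hoxd11 and Foxi3 had 0 of 86 and 0 of 75 methylated reads in cauda, which allow up to 3.49 and 4%, above their lowest testicular pools of 2.78 and 2.86%, so that a difference from those pools was not detectable at this depth. Of the 7 measured genes of the protocadherin clusters, which encode neuronal adhesion proteins, 1 was higher in cauda without overlap and 0 were lower, again too few to set against the 2.49 and 2.68% of all genes. Pcdhga3 was at 7.32, 40 and 24.4% in cauda and at 0, 8 and 9.09% in testis, with overlap. Pcdhb1 was at 8.78, 3.74 and 3.82% in cauda and at 3.13, 0.952 and 1.26% in testis, without overlap. Pcdhga1 was at 27.3, 7.14 and 32.6% in cauda and at 16.1, 39.6 and 8.47% in testis, so that each group spread over most of the range of the other.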

How the data were processed

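The authors trimmed RRBS reads of 12 sorted sperm samples with Trim Galore 0.4.1, aligned them to GRCm38 with Bismark 0.16.1 and analysed them with methylKit, as their processing notes state. The deposited table holds unnormalized values: per CpG site, every sample has a count of total, methylated and unmethylated reads, with at least 10 reads in all. The authors' 6 lists of differential sites and regions hold their differences, p-values and q-values and were not used.

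Percentages were computed from the counts of the 3 cauda and 3 testicular samples, grouped by label, and read 40, 34, 39 and 44, 53, 45 times at the median site. Each of the 14149 sites was fitted with a logistic model of reads on origin and a likelihood-ratio chi-square (Python 3.11.15, scipy 1.17.1), adjusted by Benjamini-Hochberg in place of methylKit's method, and called where the adjusted p was below 0.01 and the groups were more than 25 percentage points apart. All chromosomes were fitted, and autosomal sites are reported. limma 3.58.1 (R 4.3.3) was run on log2((percent + 1)/(100 − percent + 1)). Single values per sample were compared by exact permutation tests. The scripts were tested on simulated data. Sites were annotated with GENCODE genes of GRCm38 (promoter within 2 kb of a transcription start, then exon, intron, intergenic).

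Given in full were the 8 largest rises and 8 largest falls among called sites whose groups did not overlap, 1 per 1 kb, and each 1-kb stretch with 2 or more calls. The other calls were named by gene. Every measured imprinted and germline gene and gene named by the study was given, and the 3 largest differences of the other lists (spermatid and sperm, epididymal epithelium, testicular somatic and blood cell, DNA methylation machinery, developmental regulator and protocadherin genes). Members and lists were chosen with earlier results of these data known. Alternatives were leaving out each sample, other thresholds, coverage of at least 20 reads, 100-bp windows, an overdispersion term, limma and a replicate block. The sex chromosomes, with 232 sites and 1 call, were left out.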

Additional observations from a re-analysis of the deposited data

How the results depend on the processing

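Of 74 values computed with another setting, apart from single sites and from leaving out samples, 54 stayed on their side of the threshold, within the spread between replicates or within 1.5 times a count. Where the test was an exact permutation test, p cannot go below 0.1 and could not cross 0.05. Such values counted as kept unless their sign turned, so for them the count does not show stability. The sign changed in 2 of these 54, within 1 kb of a transcription start, where developmental regulators went from −0.473 to 0.114 points and testicular somatic and blood cell genes from −0.325 to 0.358. The calls numbered 32 with adjustment over autosomes alone, 30 with the difference of sample means and 22 at an adjusted p under 0.001. They numbered 0 with an overdispersion term (431 sites at an unadjusted p under 0.05) and 0 with limma at a pseudo-percent of 1 or 5 (569 at an unadjusted p under 0.05 with 1). They numbered 3 above 40 points, 111 above 15 points (36 higher, 75 lower), 15 among the 9289 sites with at least 20 reads in each sample and 20 in 100-bp windows, since these settings change the thresholds or the sites tested. The share of calls higher in cauda, 43.8%, was 20% at 20 reads. The mean difference of −0.0168 points was −0.623 as percent of all reads (exact permutation p = 0.3) and −2.22 as the median over sites (exact permutation p = 0.4). It turned to 0.0219 points in 100-bp windows (exact permutation p = 1), the pair distance between minus within groups to 0.00657 at 20 reads (exact permutation p = 0.4) and the class with 60 to 80% methylation in caput and corpus from 0.128 to −0.175 points at 20 reads (the cause was not tested). The correlation of 0.994 was 0.911 as Spearman's rho and 0.859 at sites between 20 and 80%. The share of sites within 10 points was 70.7% at those sites, and 81.9% lay within 5 points. The share with the interval within 25 points was 95.6% with 99% intervals, and 70.2% had it within 10 points. Of the sites without overlap, 31 had a gap of at least 10 points. The mean of the DNA methylation machinery was 0.714 points and −1.74 at 20 reads, and that of the protocadherin clusters 3.22 points and 0.625 within 1 kb of a transcription start (the cause was not tested). The maternal imprints gave no value at 20 reads, since no gene was left.

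Leaving out each sample in turn gave 32 to 63 calls, a share higher in cauda of 31.7 to 57.9%, a mean difference of −0.351 to 0.239 points, a correlation of 0.992 to 0.993, 92.7 to 93.6% of sites within 10 points, 95.6 to 96.4% with the interval within 25 points, a pair distance difference of −0.178 to 0.118 points and 1446 to 1692 sites without overlap, a count that grows with fewer samples. The class differences ranged over −0.226 to 0.162 (promoters), −1.07 to −0.291 (exons), −0.0698 to 0.533 (introns) and −0.606 to 0.268 (intergenic) points. By level they ranged over −0.113 to −0.00758, −1.53 to −0.573, −1.46 to −0.0879, −2.52 to −0.448, −0.922 to 0.733, −0.00134 to 0.782 and 0.408 to 0.595 points from the lowest class to the highest, by density over −0.0907 to 0.467, −0.480 to 0.217 and −0.385 to 0.0942, and over −0.154 to 0.362 in repeats and −0.390 to 0.256 elsewhere. The gene list means ranged over 0.202 to 1.44 (paternal imprints), −3.01 to 0.918 (maternal imprints), −2.48 to −0.449 (germline promoters), 0.150 to 3.48 (spermatid and sperm genes), −0.956 to 0.433 (testicular somatic and blood cells), −0.271 to 1.44 (DNA methylation machinery), 1.04 to 3.07 (genes named by the study), −0.807 to −0.191 (developmental regulators) and 2.04 to 4.31 (protocadherins). Of 192 fits of the 32 called sites without a sample, 124 kept the call and 68 lost it, and with limma all 32 lost it.

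With the replicate number as a block there were 31 calls, 30 of them among the 32 (lost near Pih1d3 and at Fam13c), the share higher was 45.2% and the mean difference −0.0168 points. The deviations of same-numbered cauda and testicular samples had correlations of −0.123, 0.0281 and −0.0720, and only cauda replicate 2 correlated best with its own number. The study's text takes the segments from a pool of 4 mice and calls its comparisons with testis paired, but the sources do not link the replicate numbers to pools, so the samples were treated as unpaired. Sites with fewer reads bound differences less tightly, as the intervals show.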
